A study of Homo sapiens with 6 samples.

Results

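The contractile machinery of LX-2 cells was described through 37 named genes of the myofibroblast programme: actins, calponins and transgelins, tropomyosins, thin filament regulators, myosin subunits and their kinase, intermediate filaments, actin cross-linkers and adhesion proteins, and the transcription factors SRF and MYOCD. A gene counted as measured where the platform annotation gave at least 1 probe set to that gene alone. This held for 34 genes with 153 probe sets, out of 18132 genes and 44988 single-gene probe sets in all, and TPM3, FLNA and FLNC were not analysed here. LX-2 cells are human hepatic stellate cells that were immortalised, so every sample came from 1 line. All samples had grown in medium with 10% serum and had then been kept without serum for 12 h. Cells given recombinant human BMP9 at 50 ng/ml for 24 h (n = 3) were compared with control cells at 0 ng/ml (n = 3), each sample on 1 Affymetrix 3′ expression array. The samples are labelled as biological replicates without a word on whether they were separate cultures, and the p-values cover the spread among these arrays, which may be technical.

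In liver injury stellate cells turn into myofibroblasts, which contract through bundles of actin and non-muscle or smooth muscle myosin. Calcium and calmodulin switch on the myosin kinase MYLK, while calponin, caldesmon and tropomyosin set how readily myosin reaches the actin filament. Many of these genes are transcribed through SRF, which binds a DNA element called the CArG box. Cofactors of the MRTF and myocardin family activate SRF, the MRTFs when free actin monomers run low. BMP9, a ligand of the TGF-beta family, signals through BMP-type SMAD proteins. The inhibitory SMAD gene SMAD6, a direct target of that pathway, stood at 8.99 ± 0.078 in BMP9 cells and 5.97 ± 0.17 in control cells (log2, SD, n = 3 each), a difference of 3.01 (SE 0.097, limma adjusted p = 3.97e-07).

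The promoters of the 2 genes that rose are shown because each held a CArG box, together with the start-proximal stretch of 6 other genes of the set that held one and did not rise. The sequences are RefSeq promoters of GRCh38.p14, 5′ to 3′ on the gene's own strand and ending at the base before the annotated start. Capitals mark the CArG box. The window of ACTG2 is chr2:73892758-73893007 on the plus strand and that of FILIP1L chr3:99876174-99876423 on the minus strand.
ACTG2: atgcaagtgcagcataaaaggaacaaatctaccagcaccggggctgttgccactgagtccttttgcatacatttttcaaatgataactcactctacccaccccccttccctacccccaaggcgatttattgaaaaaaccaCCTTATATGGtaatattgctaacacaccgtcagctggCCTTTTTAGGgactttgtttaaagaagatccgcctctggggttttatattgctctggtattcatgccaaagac
FILIP1L: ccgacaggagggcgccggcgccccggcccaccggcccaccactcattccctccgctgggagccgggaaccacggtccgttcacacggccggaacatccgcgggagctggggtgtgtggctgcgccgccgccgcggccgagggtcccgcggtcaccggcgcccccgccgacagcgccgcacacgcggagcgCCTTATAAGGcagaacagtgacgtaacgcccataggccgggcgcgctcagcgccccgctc

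The shorter windows hold the 130 bases before the start of the skeletal, cardiac and cytoplasmic gamma actin genes, of MYLK, of CNN2 and of SRF itself. They are chr1:229434095-229434224 (minus) for ACTA1, chr15:34795550-34795679 (minus) for ACTC1, chr17:81512800-81512929 (minus) for ACTG1, chr3:123620549-123620678 (minus) for MYLK, chr19:1026478-1026607 (plus) for CNN2 and chr6:43171139-43171268 (plus) for SRF.
ACTA1: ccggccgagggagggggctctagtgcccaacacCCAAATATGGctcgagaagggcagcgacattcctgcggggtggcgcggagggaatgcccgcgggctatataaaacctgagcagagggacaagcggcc
ACTC1: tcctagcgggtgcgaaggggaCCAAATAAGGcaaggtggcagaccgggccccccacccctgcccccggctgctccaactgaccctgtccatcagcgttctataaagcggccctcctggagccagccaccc
ACTG1: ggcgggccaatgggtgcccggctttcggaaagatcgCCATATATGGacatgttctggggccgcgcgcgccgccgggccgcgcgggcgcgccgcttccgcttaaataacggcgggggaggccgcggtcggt
MYLK: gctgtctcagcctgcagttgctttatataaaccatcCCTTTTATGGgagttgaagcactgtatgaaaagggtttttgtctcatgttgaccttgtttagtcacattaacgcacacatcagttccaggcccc
CNN2: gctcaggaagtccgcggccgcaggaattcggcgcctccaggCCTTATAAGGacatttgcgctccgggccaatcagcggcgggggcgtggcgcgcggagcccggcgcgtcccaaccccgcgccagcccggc
SRF: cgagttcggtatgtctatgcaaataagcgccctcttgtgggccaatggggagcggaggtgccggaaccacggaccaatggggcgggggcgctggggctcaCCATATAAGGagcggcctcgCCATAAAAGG

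The authors deposited RMA values on a log2 scale for each probe set, and a gene was read from the brightest probe set of its own, by the mean of all 6 arrays. The median of all probe sets lay between 3.55 and 3.57 on every array. The table holds no detection calls. The array's background probe sets, grouped by how many bases of a probe are G or C, averaged 1.67 at 3 and 10.0 at 25, so no single value separates signal from background. Levels of different genes are therefore not compared, and bright and dim refer to the log2 value alone. Among 10 stellate cell and fibroblast markers the mean log2 value was 6.21 at the median and 7 stood at 5 or more. LUM, DCN and THY1 stood below. Of 5 endothelial markers 4 also stood at 5 or more, with a median of 5.7. So did 2 of 6 hepatocyte, 1 of 5 macrophage and leukocyte and 0 of 3 cholangiocyte markers. That level alone does not identify the cell type. The array's own hybridisation controls differed by -0.21 and its poly-A controls by -0.53 between BMP9 and control arrays. Scaling to them moved the median difference of all genes to 0.23 and 0.55, against 0.014 as deposited. All differences below are BMP9 minus control on the deposited scale and relative to those shifts. With hybridisation scaling 33 of the 34 genes had a positive difference, VIM being the exception, and with poly-A scaling all 34. Any of the 34 genes given below with a negative difference in its chosen probe set thus turns positive with poly-A scaling. The genes past the threshold then numbered 14, against 27.1% of all genes, and 31, against 93.3% of all genes.

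BMP9 raised 2 of the 34 contractile genes and lowered 0 at a limma adjusted p under 0.05 over all genes, which was 5.88% of the set against 0.684% of all genes tested (0.232% higher and 0.452% lower). In the same fit the shares among genes with a mean log2 value of at least 5 were 7.14% and 1.42%. The genes were chosen with earlier results of these data known, so these shares are not an independent comparison. FILIP1L, named for its likeness to the filamin-interacting protein gene FILIP1, was 2.10-fold higher and the enteric smooth muscle actin gene ACTG2 1.35-fold higher. The median difference over the 34 genes was 0.050, with 20 positive and 14 negative, beside 0.014 over all genes, and 25 of the 34 differed by less than 0.2. The 3 BMP9 arrays lay wholly above the 3 control arrays in 8 genes and wholly below in 5, or 38.2% of the set against 18.8% of all genes (10.3% higher and 8.49% lower). At an unadjusted p under 0.05 the share was 26.5% of the set and 12.9% of all genes. Over single probe sets 26.1% of the 153 had separate groups, against 17.3% of all. Among genes with a mean log2 value of at least 5 the shares were 42.9% of 28 contractile genes and 24.4% of all. Those above were ACTB, ACTG2, MYL6, MYL9, ACTN4, FILIP1L, PALLD and TNS1, and those below ACTG1, CNN2, MYLK, TGFB1I1 and VIM.

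**Figure D1:**
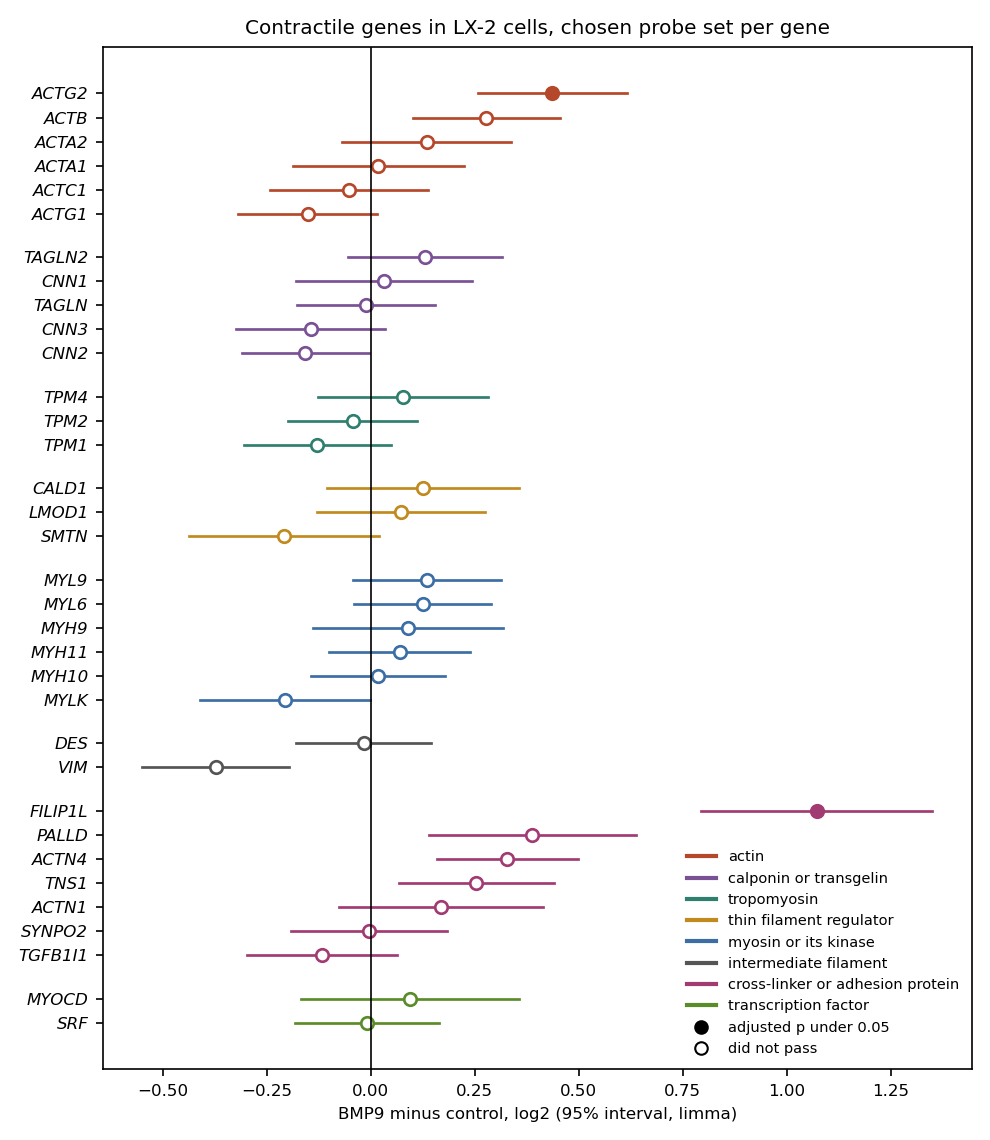
Difference between BMP9 and control in log2 units for the 34 measured contractile genes, grouped by role, with limma's 95% interval. Filled points, FILIP1L (1.07) and ACTG2 (0.44), passed an adjusted p of 0.05 over all 18132 genes, and the other 32 genes lay between -0.37 (VIM, positive with poly-A scaling) and 0.39 (PALLD).

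FILIP1L gave the largest difference of the set. Its chosen probe set read 9.06, 9.18 and 9.19 in BMP9 cells, against 8.39, 7.88 and 7.94 in control cells. Every BMP9 array was above every control array, and the first control array stood apart from the other controls. The difference was 1.07 (SE 0.13, 95% interval 0.79 to 1.35, limma adjusted p = 0.00345), and it passed whichever single array was left out, at 0.98 to 1.23. FILIP1L had 7 probe sets, 6 of them with a positive difference, and when every probe set was tested on its own 2 of the 153 contractile probe sets passed, both of them FILIP1L's, against 0.436% of all probe sets. The further one was dim, at 2.48, 2.67 and 2.41 in BMP9 cells and 2.06, 1.81 and 1.83 in control cells, a difference of 0.62 (SE 0.099, adjusted p = 0.0256 by limma), and with 1 array left out it passed in 1 of 6 cases (adjusted p 0.0348 to 0.121). Both have names ending in _x_at or _s_at, the suffixes for probes that can match other transcripts. The brightest FILIP1L probe set without such a name read 5.22, 5.44 and 5.34 in BMP9 cells and 5.05, 5.04 and 4.77 in control cells. These groups did not overlap either, but the difference of 0.38 did not pass (SE 0.099, adjusted p = 0.172 by limma, and 0.14 with such names left out). FILIP1L lies within the locus of CMSS1, whose 1 probe set was dim and differed by -0.25 with overlapping groups (limma adjusted p = 0.301). The gene's own average over its 7 probe sets differed by 0.40 (limma adjusted p = 0.0618).

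Actins form the thin filament, with ACTA2 and ACTG2 as the smooth muscle forms, ACTA1 and ACTC1 as the skeletal and cardiac forms, and ACTB and ACTG1 as the cytoplasmic forms. ACTG2 was the 1 actin of 6 that passed. Its chosen probe set, which has a shared-probe name ending in _x_at, read 6.46, 6.36 and 6.51 in BMP9 cells and 6.11, 5.97 and 5.94 in control cells. The groups were separate, with a difference of 0.44 (SE 0.081, 95% interval 0.26 to 0.62, limma adjusted p = 0.0440). The call was lost whichever array was left out (adjusted p 0.0753 to 0.187), though the difference stayed between 0.40 and 0.49. That call was also lost with a replicate block in the fit (limma adjusted p = 0.0827) and without shared-probe names (limma adjusted p = 0.081). With averaged probe sets the difference was 0.23 (limma adjusted p = 0.215). A second ACTG2 probe set, without a shared-probe name, read 4.01, 3.86 and 4.05 in BMP9 cells and 3.68, 3.52 and 3.48 in control cells. It too kept the groups apart, by 0.41 (SE 0.089), with an adjusted p of 0.0994 by limma over all probe sets, where the chosen one had 0.0608. The other 3 ACTG2 probe sets differed by 0.020 to 0.20, all of them dim, with control means of 2.39 to 3.59.

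ACTB, the cytoplasmic beta actin gene that is often used as a loading control, was higher in its bright probe set without passing. The values were 11.31, 11.13 and 11.23 in BMP9 cells and 10.89, 10.93 and 11.03 in control cells, a difference of 0.28 (SE 0.080, 95% interval 0.10 to 0.45, limma adjusted p = 0.185). The groups did not overlap, and ACTB passed with a prior that followed intensity (adjusted p = 0.0182) and among genes with a mean of at least 7 (adjusted p = 0.0087, where 20.3% of genes passed). The other 2 ACTB probe sets, at control means of 2.25 and 2.10, differed by -0.13 and -0.025. The array also carries control probe sets along the ACTB transcript, which were kept out of the fit. The one at the 5′ end averaged 10.61 ± 0.079 in BMP9 cells and 10.35 ± 0.054 in control cells, the middle one 11.77 ± 0.044 and 11.59 ± 0.044, and the one at the 3′ end 6.24 ± 0.0073 and 6.15 ± 0.10 (SD, n = 3 each). The 3′ value minus the 5′ value, often taken as a measure of RNA integrity and labelling, was -4.37 ± 0.074 in BMP9 cells and -4.19 ± 0.10 in control cells. These groups did not overlap (exact two-sided permutation p = 0.1, the smallest that 3 against 3 arrays can give). The 3′ probe set was dimmer than the 5′ one on every array, so this value is not read as RNA integrity here. For GAPDH the same measure was -1.43 ± 0.11 in BMP9 cells and -1.27 ± 0.11 in control cells (SD, n = 3, exact two-sided permutation p = 0.2). The part of this difference in the ACTB values was not tested.

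ACTA2, whose product is alpha smooth muscle actin and the usual marker of the activated stellate cell, did not pass. Its chosen probe set read 3.91, 4.01 and 4.20 in BMP9 cells and 3.95, 3.95 and 3.81 in control cells, with the groups overlapping and a difference of 0.13 (95% interval -0.069 to 0.34, limma adjusted p = 0.577). Its other 2 probe sets differed by 0.060 and 0.068 at control means of 2.50 and 2.13. All 3 were low enough that the table cannot show whether they lie above background, so a change in ACTA2 may have gone undetected here. ACTC1 read 4.17, 4.28 and 4.02 in BMP9 cells and 4.22, 4.14 and 4.26 in control cells, overlapping, while its dimmer probe set was higher by 0.24 without overlap (adjusted p = 0.374 by limma over all probe sets). ACTA1 differed by 0.018. ACTG1 had 5 single-gene probe sets, all with shared-probe names and control means of 3.26 or less, and the chosen one differed by -0.15 (limma adjusted p = 0.436).

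**Figure D2:**
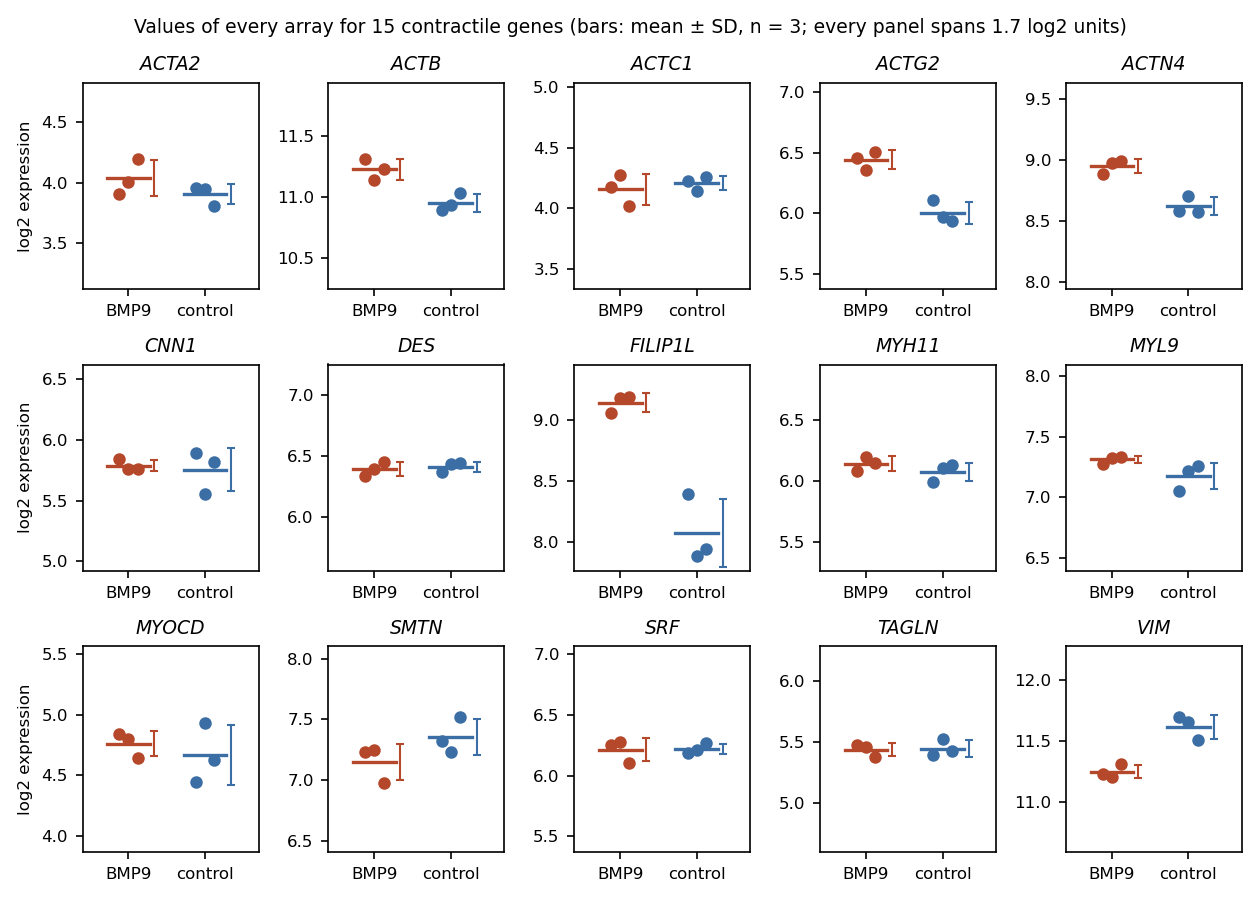
Log2 expression of 15 contractile genes on every array, BMP9 left of control, with the mean as a line and the SD as a bar beside it (n = 3 arrays per group). Each panel spans the same 1.7 log2 units, so the separation of FILIP1L, at 9.06 to 9.19 with BMP9 and 7.88 to 8.39 in control, can be set against the overlap of ACTA2, CNN1, DES, SRF and TAGLN.

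Calponins and transgelins are small actin-binding proteins, and CNN1 and TAGLN are standard markers of the smooth muscle and myofibroblast state. None of the 5 passed. CNN1 read 5.84, 5.76 and 5.76 in BMP9 cells and 5.89, 5.56 and 5.82 in control cells, overlapping, a difference of 0.032 with a 95% interval of -0.18 to 0.24. TAGLN read 5.47, 5.45 and 5.37 in BMP9 cells and 5.39, 5.52 and 5.42 in control cells, also overlapping, at -0.011 (95% interval -0.18 to 0.16). Both intervals leave out a change of the size seen in FILIP1L in the values of these probe sets. The table cannot show whether they lie above background, so a larger change in the transcripts may have gone undetected. A pair of TAGLN probe sets did keep the groups apart, differing by 0.18 and 0.19 (adjusted p = 0.436 and 0.367 by limma over all probe sets). CNN2, a calponin found outside muscle, was bright and tightly measured, at 9.67, 9.67 and 9.65 in BMP9 cells and 9.83, 9.83 and 9.80 in control cells. Its groups were separate, with BMP9 lower by -0.16 (SE 0.069, limma adjusted p = 0.369). CNN2 did pass among genes with a mean of at least 7, a setting in which 20.3% of genes passed. Of its 9 probe sets 7 had a negative difference, as far as -0.47 in a dim one (adjusted p = 0.0784 by limma over all probe sets). Another, at a mean of 5.11, was higher by 0.46 (limma adjusted p = 0.233) with overlapping groups. CNN3 differed by -0.14 and TAGLN2 by 0.13.

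Tropomyosins run along the actin filament and regulate its access to myosin. The 3 measured genes differed by -0.13 (TPM1), -0.044 (TPM2) and 0.078 (TPM4), none past the threshold and none with separate groups. TPM1, which gives many splice forms, had 9 probe sets, of which 4 had a positive and 5 a negative difference. The lowest was -0.30 (4.68 ± 0.068 in BMP9 cells and 4.98 ± 0.11 in control cells, SD, n = 3, adjusted p = 0.222 by limma over all probe sets).

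Among the thin filament regulators no gene passed, and most probe sets of CALD1 with a bright signal were higher with BMP9 while most of SMTN's were lower. CALD1, which encodes the actin- and myosin-binding protein caldesmon, had 10 probe sets. The chosen one differed by 0.13, with overlapping groups. All 5 with a mean of at least 5 were higher with BMP9, most of all one at 7.21 ± 0.041 in BMP9 cells and 6.89 ± 0.021 in control cells (SD, n = 3), a difference of 0.32 with no overlap (adjusted p = 0.128 by limma over all probe sets). SMTN, whose product smoothelin marks contractile smooth muscle, read 7.23, 7.24 and 6.98 in BMP9 cells and 7.32, 7.23 and 7.52 in control cells in its chosen probe set. These groups overlapped, with a difference of -0.21 (SE 0.10, limma adjusted p = 0.434). Of its 7 probe sets 6 had a negative difference, as far as -0.62 (4.62 ± 0.17 in BMP9 cells and 5.24 ± 0.30 in control cells, SD, n = 3, adjusted p = 0.120 by limma over all probe sets). LMOD1, which encodes the actin nucleator leiomodin, differed by 0.072.

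**Figure D3:**
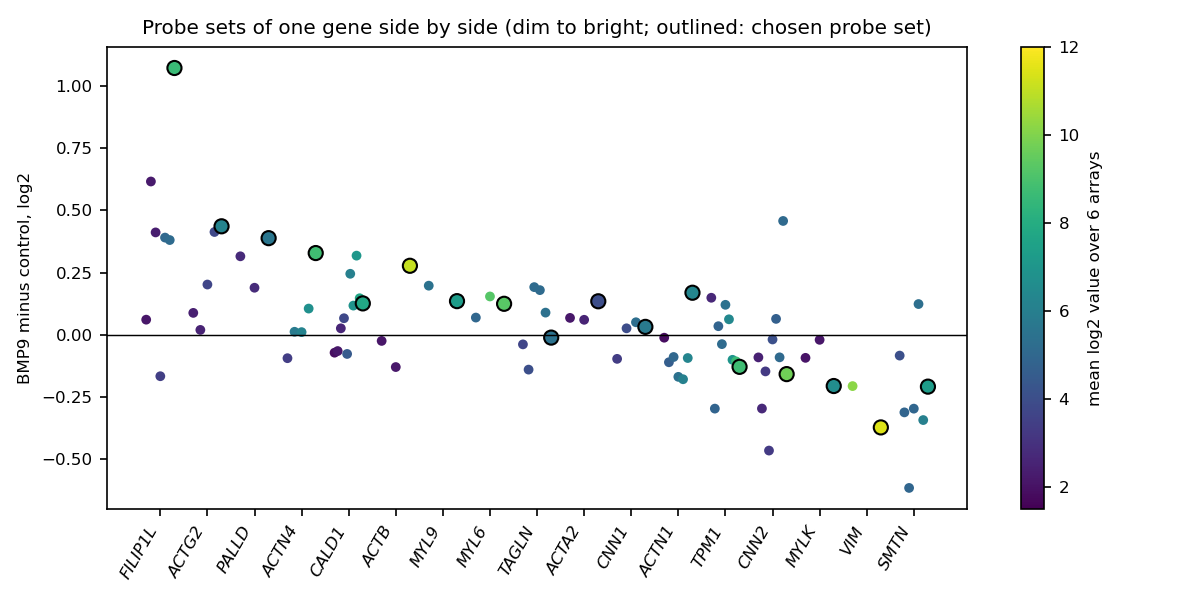
Difference between BMP9 and control in log2 units for every single-gene probe set of 17 contractile genes, coloured by its mean log2 value over 6 arrays, with the chosen probe set outlined. The 7 probe sets of FILIP1L run from -0.17 to 1.07 and the 7 of SMTN from -0.62 to 0.12, while both of VIM lie below 0. Scaling to the poly-A controls moves every point up alike, and VIM then lies above 0.

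Myosin subunits and MYLK gave 5 positive and 1 negative difference, none past the threshold. MYL9, the regulatory light chain that MYLK phosphorylates, read 7.28, 7.32 and 7.33 in BMP9 cells and 7.05, 7.22 and 7.26 in control cells. These groups were separated by a narrow margin, at a difference of 0.14 (SE 0.080, limma adjusted p = 0.511), and its other probe set, at 0.20, kept them apart as well. The essential light chain gene MYL6 was separate in both of its bright probe sets, at 9.34 ± 0.014 in BMP9 cells and 9.21 ± 0.076 in control cells (SD, n = 3) in the chosen one, a difference of 0.12 (limma adjusted p = 0.512). MYLK was lower without passing, at 6.56, 6.52 and 6.40 in BMP9 cells and 6.64, 6.59 and 6.87 in control cells, with no overlap and a difference of -0.21 (SE 0.092, limma adjusted p = 0.387). The smooth muscle heavy chain gene MYH11 read 6.08, 6.20 and 6.15 in BMP9 cells and 5.99, 6.11 and 6.13 in control cells, overlapping, at 0.069. Of its 4 probe sets 2 had a positive and 2 a negative difference. The chosen one has a shared-probe name and the others were dim. Among the dim ones 1 differed by -0.23 without overlap (adjusted p = 0.316 by limma over all probe sets). The non-muscle heavy chain genes MYH9 and MYH10 differed by 0.089 and 0.017.

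VIM, the gene of the mesenchymal intermediate filament protein vimentin, was the lowest of the set. It read 11.23, 11.21 and 11.31 in BMP9 cells and 11.69, 11.66 and 11.51 in control cells. The groups were separate, and BMP9 cells were 1.29-fold lower, a difference of -0.37 (SE 0.080, 95% interval -0.55 to -0.20), which did not pass over all genes (limma adjusted p = 0.0786). Its other probe set was lower as well, at 10.06 ± 0.015 in BMP9 cells and 10.27 ± 0.12 in control cells (SD, n = 3), a difference of -0.21. VIM passed when genes with a mean log2 value under 5 were left out (adjusted p = 0.0145, a setting in which 3.96% of genes passed) and when the prior followed intensity robustly (adjusted p = 0.00208, where 1.57% of all genes passed). DES, the muscle intermediate filament gene and a marker of rodent stellate cells, read 6.34, 6.39 and 6.45 in BMP9 cells and 6.36, 6.43 and 6.44 in control cells. Those groups overlapped, at -0.017 (95% interval -0.18 to 0.14).

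Cross-linkers and adhesion proteins tie actin bundles together and to the membrane. Of the 7 measured genes placed in this group, 5 had a positive difference. FILIP1L was counted among them, though nothing in these data shows that its product does either. ACTN4, a non-muscle alpha-actinin gene, read 8.88, 8.97 and 8.99 in BMP9 cells and 8.58, 8.71 and 8.57 in control cells. The groups were separate, at 0.33 (SE 0.076, limma adjusted p = 0.101), and ACTN4 passed under the same pair of settings (adjusted p = 0.0206 without the dim genes and 0.00919 with the intensity prior). Its 3 other probe sets with a mean of at least 5 differed by 0.011 to 0.11. PALLD, whose product palladin organises stress fibres, was at 5.83 ± 0.20 in BMP9 cells and 5.45 ± 0.14 in control cells (SD, n = 3), a difference of 0.39 with no overlap (limma adjusted p = 0.185). Its 3 probe sets all had positive differences, of 0.19 to 0.39. The tensin gene TNS1 differed by 0.25 without overlap (limma adjusted p = 0.241) and ACTN1 by 0.17 with overlap, while 6 of the 7 ACTN1 probe sets had negative differences. The synaptopodin-2 gene SYNPO2 differed by -0.0044 and TGFB1I1, which encodes the focal adhesion protein Hic-5, by -0.12.

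SRF read 6.25, 6.28 and 6.11 in BMP9 cells and 6.19, 6.21 and 6.27 in control cells, with overlapping groups and a difference of -0.0085 (95% interval -0.18 to 0.16). MYOCD, the SRF co-activator gene of heart and smooth muscle, read 4.84, 4.80 and 4.65 in BMP9 cells and 4.45, 4.93 and 4.63 in control cells, overlapping, at 0.093 (95% interval -0.17 to 0.36). Neither passed (limma adjusted p = 0.978 and 0.791). A further 35 measured genes around contraction and the MRTF-SRF pathway (among them myosin phosphatase, cofilins, LIM proteins and the MRTF cofactors) held 0 past the limma threshold, against 0.684% of all genes. At an unadjusted p under 0.05 there were 9, or 25.7%, against 12.9% of all genes. Their groups were separate in 3 genes higher and 9 lower with BMP9, or 34.3%, against 18.8% of all genes (10.3% higher and 8.49% lower). The smallest p-values were those of FHL2, MRTFB, GSN and PDLIM5 (limma adjusted p 0.138 to 0.222). FHL2, a LIM-domain cofactor, differed by -0.35 in a dim probe set with a shared-probe name (3.42 ± 0.12 in BMP9 cells and 3.77 ± 0.097 in control cells, SD, n = 3). The SRF cofactor gene MRTFB differed by -0.27 (7.85 ± 0.012 in BMP9 cells and 8.12 ± 0.12 in control cells, SD, n = 3). The actin-severing gelsolin gene GSN differed by -0.33 and the Z-disc LIM gene PDLIM5 by 0.27.

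**Figure D4:**
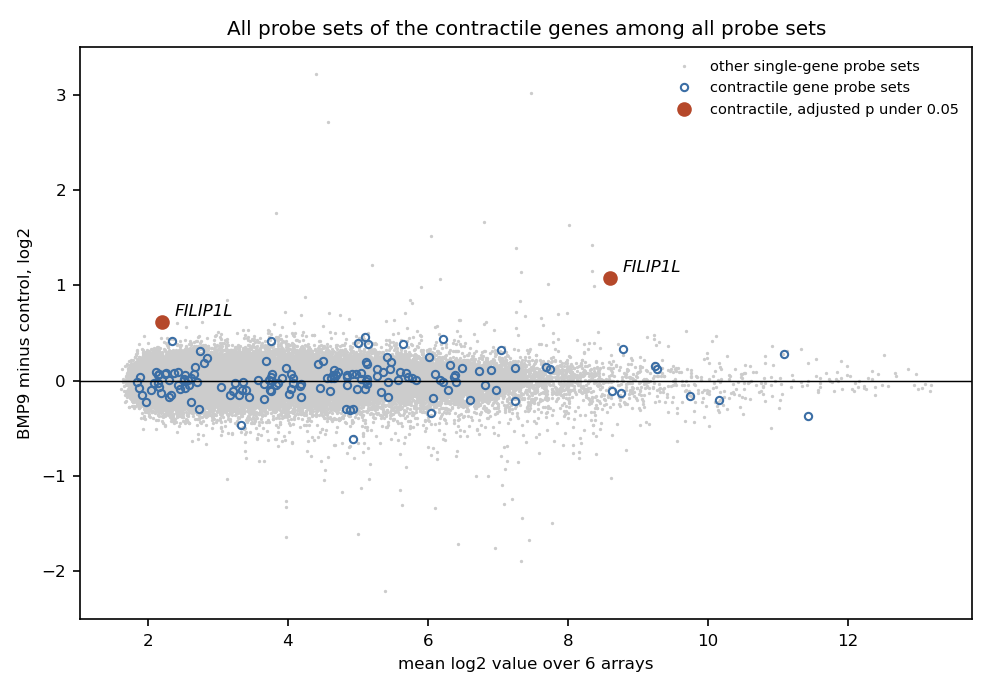
Difference between BMP9 and control in log2 units against the mean log2 value over 6 arrays, for 153 probe sets of contractile genes (rings), those past an adjusted p of 0.05 (filled) and the remaining single-gene probe sets (grey). The filled points are both FILIP1L, at 1.07 and 0.62, and the rings lie between -0.62 and 0.46.

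RefSeq promoters were listed for 28 of the 34 genes, with 59 annotated starts. ACTB, DES, MYH11, MYL9, MYOCD and TAGLN had none in the table. The 250 bases before the start were searched for the exact CArG box, which is CC, 6 letters of A or T, and GG. It reads alike on both strands. A box with another letter, or one outside these bases, was not counted. At least 1 exact box was found in 12 of the 28 genes, or 42.9%, against 1.44% of all genes with a listed promoter. Over promoters the share was 20.3% of their 59, against 1.16% of all 35116. FILIP1L had one of the form CCTTATAAGG beginning 60 bases before 1 of its 2 starts, the same 10 letters as in CNN2 at 89. ACTG2 had a pair, beginning at 110 and 73. The remaining genes with a box were ACTA1, ACTC1, ACTG1, ACTN1, MYLK, SMTN, SRF, TGFB1I1 and TPM4. The differences of the 12 ran from -0.21 to 1.07 with a median of -0.030. In the 16 genes where none was found the median was 0.080. The 6-letter motif GGCGCC is known from BMP-responsive SMAD elements and is its own reverse complement. It stood in 16.9% of the 59 promoters, against 16.4% of all promoters, and 3 times in the FILIP1L promoter shown. By gene it stood in 32.1% of the 28, against 19% of all genes with a listed promoter. A gene with more annotated starts had more windows searched.

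Markers of other cell types were read beside these values. The summed log2 value of 11 striated muscle markers lay at 45.6 to 45.7 on the BMP9 arrays and 44.5 to 45.3 on the control arrays. Of these, 10 had a mean under 5 on the log2 scale, the exception being MYL3 at 7.31. The hepatocyte, endothelial, macrophage and leukocyte, and cholangiocyte sums overlapped between the groups. The sum of the 10 stellate and fibroblast markers was 59.3 to 59.9 with BMP9 and 61.6 to 62.8 in control. Within it COL3A1 stood at 6.38 to 6.51 with BMP9 and 7.69 to 7.80 in control, PDGFRA at 4.47 to 4.81 with BMP9 and 5.38 to 6.02 in control, and DCN at 3.47 to 4.27 with BMP9 and 4.38 to 5.11 in control, while the groups of the other 7 overlapped. The part of either in the actin values was not tested.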

How the data were processed

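Gene expression was measured in LX-2 cells on 6 arrays, 3 with BMP9 and 3 controls, the groups and replicate numbers taken from the sample titles. The authors deposited log2 values for each probe set, computed with RMA per the submitters' processing notes. Its version and parameters are not stated there, and log base 2 was inferred from RMA's normal output and the value range. RMA makes the array distributions alike, which hides a shift common to most transcripts. Probe sets were named from the platform annotation, and 0 symbols changed against GRCh38.p14's gene table. Of 49395 probe sets, 102 array controls, 1832 with several symbols and 2473 with none were kept out. Differences between BMP9 and control came from limma 3.58.1 in R 4.3.3 (lmFit, eBayes, no covariate). Benjamini-Hochberg adjustment ran over the 18132 genes, or over the 44988 probe sets where each was tested alone, and 0.05 was the threshold. There were 4 residual degrees of freedom, to which the prior added 6.13 for genes. The fit was tested on simulated data. The number of arrays limits the precision. No 2 arrays shared more than 0.00405% of their values.

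Array values are given for genes with a probe set past the threshold, for ACTA2, ACTG2, ACTC1, TAGLN, CNN1, MYL9, MYH11, DES, VIM, FILIP1L, SRF and MYOCD, and for the 6 largest differences among genes whose brighter group averaged at least 6; of the pathway genes the 4 with the smallest p are named. Values of MYLK and CNN2, the motif searches and the other probe sets were chosen after their values were seen. The genes, lists and tests were chosen with earlier results of these data known. Alternatives were the replicate block, quantile normalisation, array medians, scaling to controls, minimum levels, probe set choice, an intensity trend, Welch's test, a fold minimum of 1.2 and leaving out each array. Figures were drawn with matplotlib 3.10.9.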

Additional observations from a re-analysis of the deposited data

How the results depend on the processing

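The count of contractile genes past the threshold, 2 in the main comparison, was 1 with the replicate block, 1 with a fold minimum of 1.2, 4 and 5 with a minimum mean log2 value of 5 and 7, 5 with the intensity trend, 14 and 31 with hybridisation and poly-A scaling, 1 without any single array, and 0 with averaged probe sets (87 of all genes), without shared-probe names (110 of all genes), or by Welch's test (8 at an unadjusted p under 0.05). FILIP1L was the 1 gene that passed in the block and without each array. Contractile probe sets past it numbered 2, and 1 with the block, 1 with the fold minimum, 6 and 8 with the minimum levels, 7 with the trend, 38 and 140 with the scalings, 0 without shared-probe names or by Welch's test, and 1 to 3 without single arrays. The pathway genes had 0, and 7 and 30 with the scalings and 3 with a minimum of 7. All genes past it numbered 124, and 4915 and 16912 with the scalings, 267 and 247 with the minimum levels, 285 with the trend, 0 by Welch's test (1518 at an unadjusted p under 0.05), 30 with the fold minimum and 54 to 78 without single arrays, against 94 with the block. The labels do not say whether samples with the same replicate number were paired. The deviations of same-numbered arrays correlated at -0.003, 0.036 and -0.024, which cannot show whether they were handled together. Among the genes given with array values, the differences that turned were, with hybridisation and poly-A scaling, ACTC1 (0.16 and 0.48), DES (0.19 and 0.51), SMTN (0.0030 and 0.32), SRF (0.20 and 0.52) and TAGLN (0.20 and 0.52), and VIM with poly-A scaling alone (0.16). With averaged probe sets ACTC1 (0.095), MYH11 (-0.055) and TAGLN (0.045) turned, without shared-probe names DES (0.0089), MYH11 (-0.23) and TAGLN (0.18), and over the arrays left out singly ACTC1 (-0.11 to 0.017), CNN1 (-0.068 to 0.10), DES (-0.047 to 0.012), MYOCD (-0.017 to 0.22), SRF (-0.042 to 0.046, with 0.014 among them) and TAGLN (-0.038 to 0.027, with 0.019 among them). A minimum level and left-out arrays change how many genes or samples enter. Each scaling adds the same amount to the difference of every gene. Leaving out shared-probe names reads some genes from another probe set. The cause of the other changes was not tested. Dim probe sets such as those of ACTA2 limit what a lack of a call can show.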

Other observations

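The CArG box was also read across all measured genes, a comparison chosen after the contractile promoters had been seen. Of 237 measured genes with a box in the 250 bases before an annotated start, 5 passed the limma threshold, or 2.11%, and all 5 were higher with BMP9. FILIP1L and ACTG2, whose boxes prompted the search, are 2 of them, and without the contractile genes 3 of 225 passed, or 1.33%. Of 14188 measured genes with a listed promoter and no such box found, 28 were higher and 62 lower, 0.634% in all. Beside FILIP1L and ACTG2 the genes with a box were SPARCL1, a matricellular glycoprotein gene, at 6.38 ± 0.076 in BMP9 cells and 5.82 ± 0.16 in control cells, the forkhead repressor gene FOXP1, at 7.54 ± 0.16 in BMP9 cells and 6.98 ± 0.048 in control cells, and the adaptor gene SH3KBP1, at 6.11 ± 0.099 in BMP9 cells and 5.59 ± 0.15 in control cells (SD, n = 3 each). Their differences were 0.56, 0.55 and 0.52 (limma adjusted p = 0.0272, 0.0258 and 0.0411). The median difference over the 237 genes was 0.0055, with 125 positive and 112 negative, beside 0.014 over all genes. Whether these shares differ was not tested.

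The sign of the difference was compared between probe sets of 1 gene. In 14 contractile genes at least 2 probe sets had a mean log2 value of 5 or more. The differences were all positive in 8 genes (ACTN4, CALD1, CNN1, FILIP1L, MYL6, MYL9, TAGLN2 and TNS1), all negative in VIM and mixed in ACTN1, CNN2, SMTN, TAGLN and TPM1, on the deposited scale. Of these probe sets 1, of FILIP1L, passed the limma threshold over all probe sets, and in CNN1 and TAGLN2 the groups overlapped in every one. The share of genes with 1 sign was 64.3%, beside 54.6% of the 2238 such genes in all.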
